A study of Mus musculus with 18 samples.

Results

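Homeobox transcription factors that mark regions of the forebrain and midbrain were measured in RNA labelled as mouse thalamus. The 36 genes were chosen by symbol, with low-count genes included, and 36 of 36 were rows of the deposited table of 50559 genes. The samples were wild-type mice in 3 groups of 6 libraries: control, given saline; model, given the treatment labelled Coll IV; and intervene, given Coll IV together with remodelin, an inhibitor of the RNA acetyltransferase NAT10. The series concerns inflammation-related genes after thalamic haemorrhage. The sources used here do not give strain, age, sex, time after treatment, sequencing batch or the expansion of Coll IV. The labels number the samples within each group but do not say that each is a separate animal, so p-values measure only the spread between these samples.

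Homeobox proteins bind DNA through a conserved homeodomain, and in the embryo their combinations set the identity of brain regions. Many of them stay on in the neurons of the same region throughout life, so the set of homeobox genes in adult tissue is commonly read as a map of the regions it holds. For description the 36 genes were put in 4 groups by the region each is best known for: thalamus, habenula and midbrain (11 genes), hypothalamus and prethalamus (6), subpallium, the source of striatum and of GABAergic interneurons (10), and pallium, the source of cortex and hippocampus (9). Several genes, such as Six3, Lhx2, Otx2 and the Dlx genes, are used in more than 1 of these regions. The group of 11 genes is called thalamic below for short, though it also holds genes of the habenula and midbrain.

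Libraries held 28481225 to 118461420 counts, with control 1 the deepest, control 5 at 56878946 and the other 16 at 36361681 or fewer; 3 counts corresponded to 0.0246 to 0.108 CPM (counts relative to library size, scaled by edgeR's TMM factors). Libraries numbered 1 to 3 and those numbered 4 to 6 differed in every group. The labels do not mention this division, which was noticed in the data themselves, and the 36 genes and the marker lists used here were chosen with it known. Markers of the labelled tissue were low in part of the libraries: the summed level of 18 thalamic neuron markers was 980.2 to 1137 CPM in controls 1 to 3 and 317 to 378 in controls 4 to 6, and that of 8 habenula markers 495 to 617 and 79.6 to 121. By edgeR at an adjusted p under 0.05, 11 of the 18 were lower and 2 higher in controls 4 to 6. The shares of all genes tested were 19.6% lower and 18.6% higher. For model they were 9.78% and 8.91%, and for intervene 7.16% and 7.76%. Counts of genes and markers called between number sets below stand beside these shares. All results below are therefore given by group and by number set.

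Across the 4 groups of genes, the thalamic group divided the libraries most sharply. Its 11 genes summed to 104 to 119 CPM in controls 1 to 3 and to 0.993 to 2.26 in controls 4 to 6. In model libraries the sums were 77.7 to 153 and 3.71 to 11.4 CPM, and in intervene libraries 73.3 to 145 and 63.02 to 86.5. The intervene libraries 4 to 6 thus lay far above the control and model libraries of the same numbers and overlapped the range of libraries 1 to 3. The pallial group ran the other way, at 153 to 236 CPM in controls 1 to 3 and 379 to 427 in controls 4 to 6. Of the 36 genes, 35 reached 1 CPM in each of controls 1 to 3, against 18, 18 and 20 in controls 4, 5 and 6, and 36, 35 and 33 in intervene 4, 5 and 6. In these bulk samples, fewer cells of a type and less RNA per cell cannot be told apart.

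**Figure D1:**
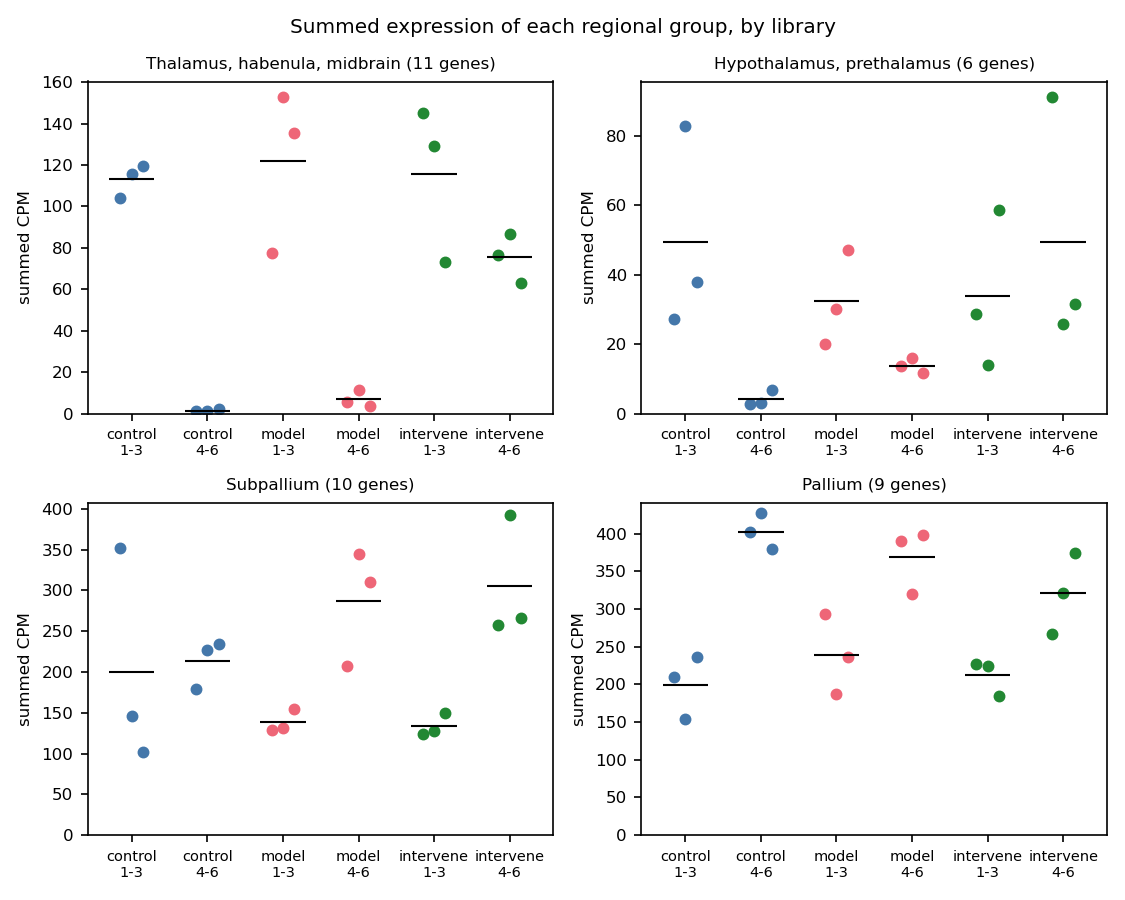
Summed CPM (y axis) of the genes of each regional group, with 1 point for each library, a bar at the mean of the 3 libraries, and the 6 combinations of group and number set on the x axis. The thalamic sums of controls 4 to 6 (0.993 to 2.26 CPM) and model 4 to 6 (3.71 to 11.4) lie near 0, and those of intervene 4 to 6 lie at 63.02 to 86.5.

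**Figure D2:**
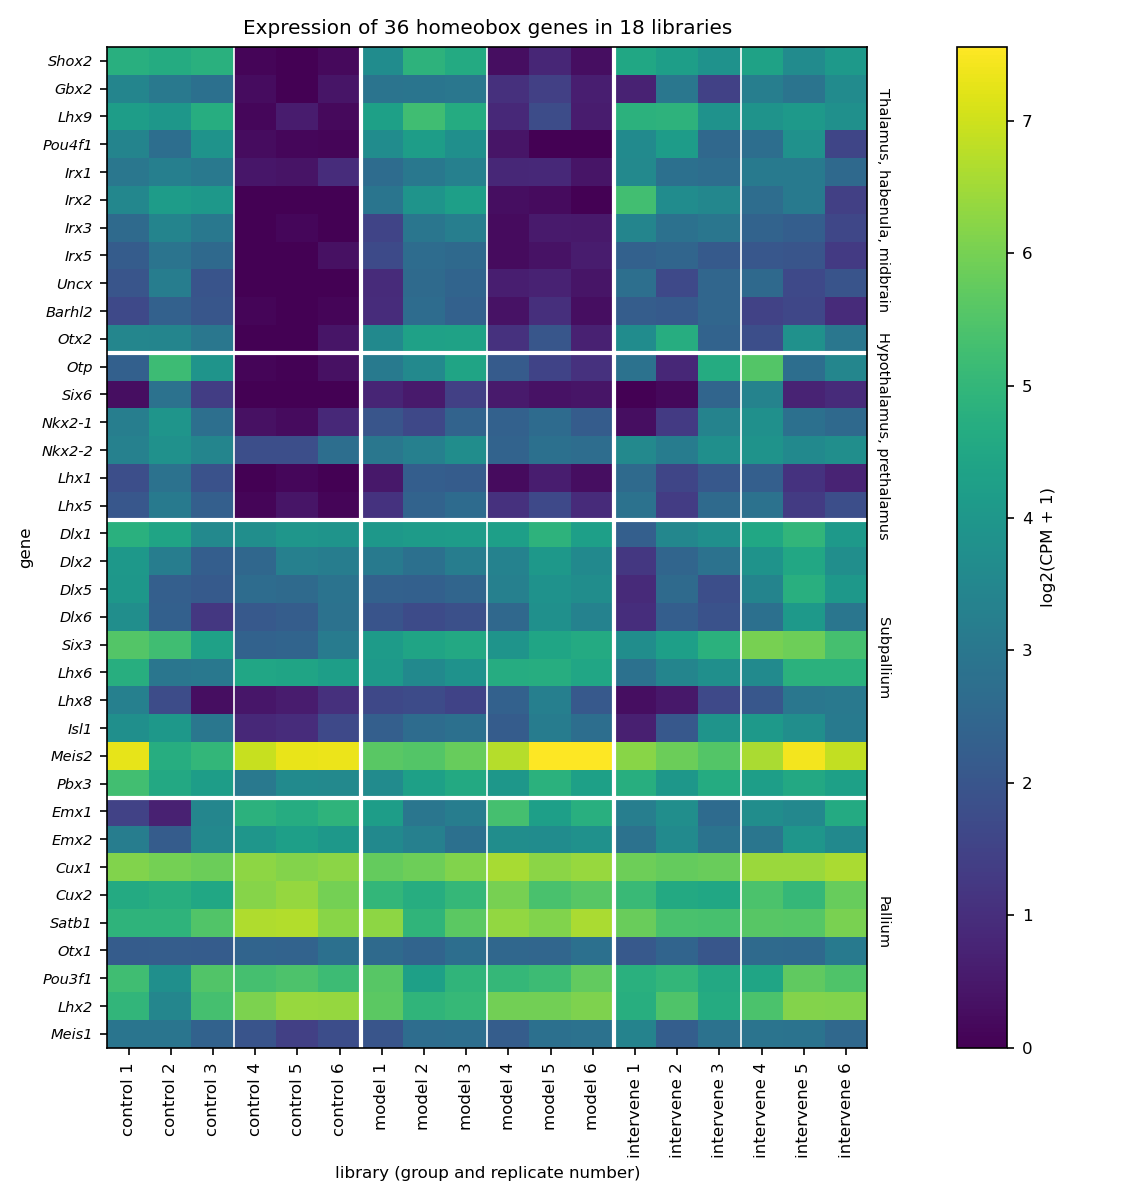
Level of each of the 36 genes (rows, in the 4 regional groups) in each of the 18 libraries (columns) as log2(CPM + 1), with darker and lighter colours on the scale at the side. The rows of the thalamic group are near 0 in controls 4 to 6 and low in model 4 to 6, whereas each of the 9 pallial rows is above 1 CPM in all 18 libraries, except Emx1 at 0.633 CPM in control 2.

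In libraries 4 to 6 of control, 11 of 11 genes of the thalamus, habenula and midbrain fell, and so did 11 of 11 in model. By edgeR's quasi-likelihood test at an adjusted p under 0.05, 19.6% of all 18452 genes tested were lower in controls 4 to 6 than in controls 1 to 3, and 9.78% were lower in model. The median log2 difference of the 11 genes was -6.34 in control and -3.76 in model, beside -2.63 and 0.08 over the 36 genes and -0.02 and -0.01 over all genes tested. Control libraries of the 2 number sets did not overlap for 11 of 11 genes, where 26.6% of all genes were lower without overlap, and model libraries for 10 of 11, where 19.4% were.

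Shox2, a factor of thalamic projection neurons, stood at 25.97, 24.02 and 27.04 CPM in controls 1 to 3 and at 0.0640, 0 and 0.133 in controls 4 to 6. Model libraries gave 11.6, 28.8 and 23.6 CPM and then 0.223, 0.769 and 0.210. Intervene libraries gave 21.6, 17.8 and 13.5 CPM and then 19.4, 11.5 and 15.8. Shox2 was thus nearly lost from 6 libraries, present in the other 12, and overlapping between the 2 intervene sets. The log2 fold change between number sets was -8.87 ± 0.63 (SE, n = 3 against 3, adjusted p = 1.8e-06) in control, -5.71 ± 0.49 (adjusted p = 4.5e-05) in model and -0.18 ± 0.35 (adjusted p = 0.774) in intervene.

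Lhx9, a LIM-homeobox gene of the caudal thalamus, followed with 17.5, 15.01 and 24.96 CPM in controls 1 to 3 and 0.0961, 0.485 and 0.133 in controls 4 to 6. Its model values were 18.6, 36.9 and 24.1, then 0.837, 2.37 and 0.490 CPM, and its intervene values 27.8, 28.4 and 13.4, then 13.7, 16.2 and 12.8 CPM. The 2 number sets overlapped in intervene only, and the log2 fold change was -6.08 ± 0.60 in control, -4.41 ± 0.52 in model and -0.71 ± 0.43 in intervene (SE; adjusted p = 1.6e-05, 0.000331 and 0.282). Gbx2, which thalamic neurons need to differentiate, read 9.95, 7.23 and 5.93 CPM in controls 1 to 3 and 0.192, 0 and 0.332 in controls 4 to 6. In intervene it was uneven among libraries 1 to 3, at 0.642, 6.98 and 1.74 CPM, and at 8.38, 6.505 and 11.5 in libraries 4 to 6. Intervene 1 thus had little Gbx2 although its Shox2 was 21.6 CPM.

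Pou4f1, the POU factor of habenula neurons also called Brn3a, was measured at 9.67, 5.61 and 13.7 CPM in controls 1 to 3 and 0.192, 0.104 and 0.0664 in controls 4 to 6. Model libraries held 11.8, 17.4 and 12.5 CPM and then 0.335, 0 and 0, so that 2 of the 3 later model libraries had no count. Intervene libraries held 11.4, 16.97 and 4.91 CPM and then 5.57, 13.01 and 1.98. Its log2 fold change between sets was -6.31 ± 0.93 in control and -6.81 ± 0.95 in model (SE, adjusted p = 0.000219 and 0.000986). Beside it, 7 of 8 habenula markers were lower in controls 4 to 6 and 6 of 8 in model 4 to 6, and their sum in intervene 4 to 6 was 348 to 482 CPM. The part of these markers in the result was not tested.

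The 4 Iroquois genes, which pattern the caudal diencephalon and the midbrain, fell in 4 of 4 cases in controls 4 to 6 and in model 4 to 6. Irx1 gave 6.92, 8.59 and 7.34 CPM in controls 1 to 3 and 0.384, 0.312 and 0.929 in controls 4 to 6. Its model values were 5.33, 7.09 and 8.701, then 0.781, 0.829 and 0.350 CPM, and its intervene values 10.8, 5.95 and 5.53, then 7.501, 7.58 and 4.99 CPM. No library of control or model 4 to 6 reached 1 CPM, whereas every intervene library lay at 4.99 CPM or more. Irx1 fell by 3.87 ± 0.40 (SE) on the log2 scale in control and by 3.41 ± 0.39 in model (adjusted p = 1.2e-05 and 0.000245). Irx2 had no count in any of controls 4 to 6, against 10.3, 16.998 and 15.2 CPM in controls 1 to 3. That is at least 563-fold below their mean, taking a floor of 3 counts over the 3 libraries. Here and below, such bounds treat each count as a separate fragment. Low counts were mostly even, as in 8, 26 and 6 for Shox2 in model 4 to 6. If fragments were counted more than once, the bounds would be lower, which was not tested. Irx3 and Irx5 showed log2 fold changes of -7.13 and -6.08 in control and of -4.01 and -3.76 in model, all 4 called. Irx1 and Irx2 are neighbours on chromosome 13, and Irx3 and Irx5 on chromosome 8.

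Irx2 was the only gene of this group called between the number sets in intervene, with 37.4, 11.9 and 10.3 CPM in libraries 1 to 3 and 5.44, 7.51 and 1.71 in libraries 4 to 6 (log2 fold change -2.02 ± 0.62 SE, edgeR adjusted p = 0.0491; 7.16% of all genes were called lower there). The call was lost without any 1 of 15 libraries, among them intervene 1, which had the highest Irx2 value of the series. Uncx, a paired-type factor of the diencephalon and midbrain, had 2.97, 8.198 and 2.88 CPM in controls 1 to 3. It had no count in controls 4 to 6, at least 186-fold below the mean of controls 1 to 3. In model 4 to 6 it kept 0.558, 0.651 and 0.350 CPM, against 0.920, 5.104 and 4.38 in model 1 to 3 (log2 fold change -2.72 ± 0.67 SE, adjusted p = 0.0154). The model call for Uncx was lost without model 2, 4 or 6 (adjusted p up to 0.0671), and that for Gbx2 without model 2, 3, 4 or 6 (up to 0.0904).

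Barhl2, a BarH-like factor of the diencephalon, and Otx2, a head-patterning factor that adult choroid plexus also expresses, fell with the rest, by 6.34 ± 0.90 and 6.63 ± 1.13 (SE) on the log2 scale in control and by 2.79 ± 0.64 and 3.34 ± 0.80 in model. Otx2 read 11.1, 19.1 and 19.4 CPM in model 1 to 3 and 1.12, 3.08 and 0.630 in model 4 to 6. Of 14 choroid plexus markers tested, 12 were lower in model 4 to 6 and 4 in controls 4 to 6. Their sum was 4163 to 6674 CPM in model 1 to 3, 245 to 332 in model 4 to 6 and 326 to 1157 in controls 1 to 3; 1 of the 15 listed, Otx2os1, had no count in controls 4 to 6. In intervene the 2 highest Otx2 values, 25.3 and 13.3 CPM in libraries 2 and 5, came with the 2 highest choroid plexus sums, 12292 and 4948 CPM. The model call for Otx2 was lost without model 4 or 6. The part of choroid plexus in the Otx2 values was not tested.

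The promoters of 3 genes that ended at opposite sides of this division are printed as examples: Shox2 (chr3:66981722-66982021, minus strand) and Uncx (chr5:139543648-139543947, plus strand), both lower in controls 4 to 6 and model 4 to 6, and the pallial gene Emx2 (chr19:59458440-59458739, plus strand), which rose in controls 4 to 6. Each runs from 250 bases before to 50 after the RefSeq start, 5′ to 3′ in GRCm38.p6. Capitals mark TAATTA, a core recognised by many homeodomains, and TGACAG, a core recognised by Meis and related factors, searched on both strands; neither motif contains the other.
Shox2: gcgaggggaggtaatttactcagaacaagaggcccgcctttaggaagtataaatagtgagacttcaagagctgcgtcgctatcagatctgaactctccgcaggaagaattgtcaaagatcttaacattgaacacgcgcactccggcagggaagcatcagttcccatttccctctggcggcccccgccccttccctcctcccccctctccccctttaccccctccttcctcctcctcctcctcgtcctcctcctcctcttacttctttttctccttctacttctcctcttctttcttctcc
Uncx: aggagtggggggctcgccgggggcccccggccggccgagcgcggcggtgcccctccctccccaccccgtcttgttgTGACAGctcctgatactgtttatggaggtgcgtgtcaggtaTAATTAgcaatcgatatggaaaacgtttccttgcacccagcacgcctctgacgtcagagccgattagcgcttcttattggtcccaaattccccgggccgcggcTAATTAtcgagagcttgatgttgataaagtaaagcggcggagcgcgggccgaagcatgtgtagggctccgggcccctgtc
Emx2: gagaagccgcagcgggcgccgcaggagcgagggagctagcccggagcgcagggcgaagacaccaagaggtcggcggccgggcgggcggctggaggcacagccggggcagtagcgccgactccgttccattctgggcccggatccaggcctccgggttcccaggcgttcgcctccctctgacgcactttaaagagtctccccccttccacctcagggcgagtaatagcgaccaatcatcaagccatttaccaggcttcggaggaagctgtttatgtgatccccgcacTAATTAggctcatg
The Shox2 window holds neither motif. RefSeq gave promoters for 28 of the 36 genes, 39 promoters in all, of which 4 (10.3%) held TAATTA and 8 (20.5%) TGACAG, against 5.29% and 19.2% of all 32851 promoters of the same length. The 4 windows with TAATTA came from only 3 genes, since alternative starts of Otx2 were counted separately. The median number of CG pairs per window was 17 in the 39 promoters and 7 in all promoters. These are letter matches, not sites of binding.

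Genes of the hypothalamus and prethalamus fell in controls 4 to 6 in 6 of 6 cases (background 19.6% lower), with a median log2 difference of -5.46. In model 1 of 6, Lhx1, was called lower (9.78% of all genes), with a median of -1.38, and in intervene 0 of 6 were called in either direction, with a median of 0.61 (14.9% of all genes called). By an unadjusted edgeR p under 0.05, 0 of the 6 differed in intervene, and by DESeq2 0. Their summed level was 27.3 to 82.9 CPM in controls 1 to 3 and 2.88 to 6.804 in controls 4 to 6, 19.9 to 47.2 and 11.7 to 16.01 in model, and 13.97 to 58.8 and 25.9 to 91.3 in intervene.

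Nkx2-2, a factor of the ventral diencephalon that oligodendrocyte precursors also express, was the most even of the 6. It stood at 8.92, 13.3 and 9.75 CPM in controls 1 to 3 and 2.498, 2.51 and 5.64 in controls 4 to 6. Model libraries gave 6.99, 8.75 and 11.9, then 4.35, 5.86 and 5.53 CPM, and intervene libraries 10.9, 8.08 and 12.7, then 13.9, 11.1 and 12.4 CPM. It did not vanish from any library, and the sets overlapped only in intervene. The log2 fold change was -1.59 ± 0.29 (SE, adjusted p = 0.000624) in control, -0.82 ± 0.29 (adjusted p = 0.0565) in model and 0.24 ± 0.28 (adjusted p = 0.602) in intervene.

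Lhx1, a LIM factor of hypothalamic nuclei such as the suprachiasmatic nucleus, gave 2.52, 6.24 and 2.73 CPM in controls 1 to 3 and 0, 0.104 and 0 in controls 4 to 6. In model it read 0.398, 3.78 and 3.55, then 0.167, 0.533 and 0.210 CPM, with model 1 down in the range of the later libraries, and in intervene 5.17, 2.004 and 3.23, then 3.85, 1.14 and 0.684 CPM. Its relative Lhx5 gave 3.13, 7.63 and 3.88 CPM in controls 1 to 3 and 0.0640, 0.347 and 0.0664 in controls 4 to 6. Model values of Lhx5 were 1.16, 4.31 and 5.298, then 1.12, 2.19 and 0.909 CPM, and intervene values 6.27, 1.55 and 5.09, then 6.22, 1.48 and 2.53 CPM. In controls 4 to 6 both genes were at 0.347 CPM or less. In control the log2 fold changes were -6.22 ± 1.12 for Lhx1 and -4.69 ± 0.85 for Lhx5 (SE, adjusted p = 0.000709 and 0.000783), and in model -3.06 ± 0.89 and -1.35 ± 0.70 (adjusted p = 0.0288 and 0.190). The model call for Lhx1 was lost without model 2, 3, 4 or 6.

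Otp, which specifies neuroendocrine neurons such as those making oxytocin and vasopressin, varied widely inside the sets: 4.01, 35.1 and 14.02 CPM in controls 1 to 3, 6.13, 0.776 and 23.9 in intervene 1 to 3 and 45.3, 5.63 and 9.98 in intervene 4 to 6. In controls 4 to 6 it stood at 0.0640, 0.0347 and 0.266 CPM, a log2 fold change of -7.36 ± 1.61 (SE, adjusted p = 0.00328). Nkx2-1, a factor of the ventral hypothalamus, gave 8.48, 14.4 and 5.83 CPM in controls 1 to 3 and 0.256, 0.173 and 0.830 in controls 4 to 6. Its values in intervene were 0.214, 1.42 and 9.35, then 12.8, 5.901 and 4.99 CPM. Six6, a factor of the hypothalamus and retina, had no count in controls 4 to 6. That is at least 107-fold below the mean of 0.213, 6.27 and 1.58 CPM in controls 1 to 3. The mean rests mostly on control 2, at 6.27 CPM. The Six6 call was lost without any 1 of controls 2, 4, 5 and 6.

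Control 2, intervene 3 and intervene 4 held the 3 highest values of Otp, of Six6 and of Nkx2-1. The same 3 libraries had the 3 highest summed levels of 14 hypothalamic neuropeptide and related markers, at 1723, 1173 and 2217 CPM. By number set this sum was 780.1 to 1723 and 442 to 545 CPM in control, 695 to 1094 and 598 to 729 in model and 322 to 1173 and 679 to 2217 in intervene, with 10 of 14 markers lower and 1 higher in controls 4 to 6, and no listed marker at 0 in all 3 libraries of a set. Their part in the Otp, Six6 and Nkx2-1 values was not tested.

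Among the 10 subpallial genes, 4 fell in controls 4 to 6 (Six3, Isl1, Pbx3 and Lhx8) and 0 rose, beside 19.6% and 18.6% of all genes. In model 1 rose (Meis2; 8.91% of all genes called higher) and 0 fell. In intervene 4 rose (Dlx1, Dlx2, Dlx5 and Six3; 7.76% of all genes called higher) and 0 fell. The median log2 differences were -0.48, 0.76 and 1.41 in control, model and intervene.

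Six3, a factor of the rostral forebrain and of striatal and prethalamic neurons, stood at 45.1, 36.6 and 19.1 CPM in controls 1 to 3 and 4.16, 4.39 and 7.77 in controls 4 to 6. Model libraries gave 16.6, 20.1 and 22.8, then 14.1, 20.6 and 23.7 CPM. Intervene libraries gave 12.1, 18.1 and 27.3, then 62.9, 57.9 and 39.3 CPM. The later libraries were thus lower in control, overlapped the earlier in model and were higher in intervene, with no overlap in control or intervene. The log2 fold change was -2.64 ± 0.37 (SE, adjusted p = 0.000144) in control, -0.03 ± 0.35 (adjusted p = 0.959) in model and 1.47 ± 0.35 (adjusted p = 0.0147) in intervene; the intervene call was lost without intervene 1 (adjusted p = 0.0642).

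Pbx3, a TALE-class partner of other homeodomain factors, gave 37.4, 22.8 and 17.6 CPM in controls 1 to 3 and 7.398, 11.3 and 10.7 in controls 4 to 6. Its model values were 11.5, 18.6 and 23.2, then 15.1, 27.6 and 18.5 CPM, and its intervene values 25.8, 14.9 and 23.9, then 17.9, 22.6 and 18.5 CPM. Controls 4 to 6 had the 3 lowest values of the series. The log2 fold change was -1.41 ± 0.32 in control, 0.20 ± 0.32 in model and -0.13 ± 0.32 in intervene (SE, adjusted p = 0.00364, 0.695 and 0.820). Isl1, a LIM factor of striatal projection and cholinergic neurons, fell by 3.17 ± 0.81 (SE) on the log2 scale in control, from 12.5, 15.5 and 7.05 to 0.833, 0.954 and 2.19 CPM. Lhx8, a factor of forebrain cholinergic neurons, was called lower in controls 4 to 6 (log2 fold change -2.62 ± 0.97 SE, adjusted p = 0.0467), but its sets overlapped, at 8.72, 2.35 and 0.216 and 0.384, 0.485 and 1.06 CPM, and the call was lost under 14 of 23 alternatives, among them leaving out any 1 of 12 libraries (adjusted p up to 0.401, without control 1).

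Dlx5, one of the Dlx genes that specify GABAergic neurons, read 14.97, 3.86 and 3.42 CPM in controls 1 to 3 and 5.38, 5.13 and 6.41 in controls 4 to 6. In model it gave 4.08, 4.01 and 4.47, then 8.76, 13.5 and 12.1 CPM, and in intervene 0.855, 5.11 and 2.55, then 9.63, 26.1 and 15.2 CPM. The sets did not overlap in model or intervene, and in control the value of library 1 alone made them overlap. In intervene the log2 fold change was 2.57 ± 0.61 for Dlx5, 1.34 ± 0.38 for Dlx1 and 1.99 ± 0.51 for Dlx2 (SE, adjusted p = 0.0147, 0.0305 and 0.0206). Dlx6 stood at 1.91 ± 0.68 (adjusted p = 0.0725), and Lhx6, a factor of interneurons from the medial ganglionic eminence, at 1.20 ± 0.46 (adjusted p = 0.0936). The 3 Dlx calls were lost without intervene 1, in which Dlx1, Dlx2 and Dlx5 were at 3.89, 1.35 and 0.855 CPM, and without intervene 5. The Dlx5 call was also lost without intervene 3, and the Dlx1 call with library totals in place of TMM factors. Of the 36 genes, 7 rose in intervene 4 to 6; without intervene 1 there were 2, without intervene 5 there were 4 and without control 1, which enters the shared estimate of spread, there were 11.

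Control 1 stood apart from controls 2 and 3 in this group. Meis2, a TALE factor of striatal and olfactory neurons, was at 153, 25.2 and 31.1 CPM in controls 1 to 3, against 119.7, 157 and 159 in controls 4 to 6. In model it was 48.7, 45.2 and 55.3, then 105, 186 and 187 CPM (log2 fold change 1.68 ± 0.54 SE, adjusted p = 0.0448), a call lost without any 1 of the 6 model libraries and under 14 of 23 alternatives in all. The summed level of 13 striatal markers was 2619, 427 and 437 CPM in controls 1, 2 and 3 and 1062 to 1547 in controls 4 to 6. In model the striatal sum was 418 to 507 CPM in libraries 1 to 3 and 1670.5 to 3654 in libraries 4 to 6, with 12 of 13 markers called higher (8.91% of all genes). In intervene it was 379 to 800.1 and 1075 to 2579.9 CPM, with 0 of 13 called, and no striatal marker was at 0 in all 3 libraries of a set. The part of these markers in the Meis2 and Dlx values was not tested.

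Of the 9 pallial genes, 5 rose in controls 4 to 6 (Emx1, Emx2, Cux2, Satb1 and Lhx2) and 1, Meis1, fell, beside 18.6% and 19.6% of all genes. In model 2 rose (Cux1 and Cux2) and in intervene 3 (Cux1, Cux2 and Otx1), beside 8.91% and 7.76% of all genes called higher. In these 2 groups 0 fell by edgeR or by DESeq2. Over the 36 genes 3 rose in model 4 to 6, about the same share as over all genes. That count was 1 without model 2 or without model 4 and 5 without control 1. The median log2 difference was 1.11 in control, 0.52 in model and 0.66 in intervene.

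Cux2, a cut-like factor of upper-layer cortical neurons, stood at 23.6, 25.6 and 21.7 CPM in controls 1 to 3 and 71.1, 81.7 and 62.7 in controls 4 to 6. Its model values were 31.1, 25.2 and 31.5, then 63.4, 40.9 and 47.2 CPM, and its intervene values 33.5, 23.02 and 21.6, then 41.7, 31.9 and 54.5 CPM. It was higher in the later libraries of every group, with a small overlap in intervene. The log2 fold change was 1.60 ± 0.21 (SE, adjusted p = 5.4e-05) in control, 0.79 ± 0.20 (adjusted p = 0.0159) in model and 0.71 ± 0.21 (adjusted p = 0.0293) in intervene. Its relative Cux1 gave 68.5, 61.5 and 57.6, then 75.9, 69.9 and 74.2 CPM in control, 53.1, 58.8 and 68.5, then 94.8, 74.9 and 83.4 in model, and 57.99, 53.8 and 55.8, then 85.1, 84.2 and 95.4 in intervene. The sets of Cux1 did not overlap in any of the 3 groups, with log2 fold changes of 0.23 ± 0.11, 0.49 ± 0.11 and 0.66 ± 0.11 (SE, adjusted p = 0.0963, 0.00634 and 0.00246).

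Satb1, a chromatin organiser of cortical neurons and interneurons with a divergent homeodomain, gave 29.2, 29.1 and 44.3 CPM in controls 1 to 3 and 98.96, 102 and 72.8 in controls 4 to 6. Model libraries gave 75.6, 29.8 and 49.3, then 79.1, 68.1 and 96.2 CPM, and intervene libraries 55.4, 40.9 and 40.2, then 47.1, 46.3 and 64.6 CPM. The sets were apart in control and overlapped in model and intervene; the control log2 fold change was 1.42 ± 0.29 (SE, adjusted p = 0.00160). Emx1, a gene of the developing cortex that stays on in its excitatory neurons, had the widest range of the 9 as a ratio of its highest to its lowest value over the 18 libraries, and went from 1.83, 0.633 and 10.1 CPM in controls 1 to 3 to 27.9, 24.4 and 29.5 in controls 4 to 6 (log2 fold change 2.77 ± 0.74 SE, adjusted p = 0.00984). Its value in control 2, 0.633 CPM, was the lowest of the 18 libraries. Emx2 and Lhx2, further factors of the embryonic cortex, rose by 1.11 ± 0.35 and 1.52 ± 0.39 (SE) on the log2 scale in control. The summed level of 18 cortical and hippocampal markers was 839 to 2529 CPM in controls 1 to 3 and 4794 to 4987 in controls 4 to 6, with 8 of 18 higher and 1 lower, 1877 to 3178 and 3433 to 4094 in model, and 1477 to 2569 and 2056 to 3441 in intervene. Their part in the pallial genes was not tested. The Emx2 call was lost without control 2 or control 5, the model call for Cux2 without model 2 or 4 and the intervene call for Cux2 without intervene 2, 3 or 6.

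Meis1, a TALE-class factor, was the exception in the pallial group: it fell from 6.72, 6.69 and 4.21 CPM in controls 1 to 3 to 2.88, 1.699 and 2.42 in controls 4 to 6 (log2 fold change -1.35 ± 0.33 SE, adjusted p = 0.00482). Otx1, a factor of deep cortical layers, was called only in intervene, at 0.70 ± 0.21 (adjusted p = 0.0312), and that call was lost without intervene 1, 3 or 6. Pou3f1, a POU factor of cortical neurons, was called in no comparison; its log2 fold change between sets was 0.32 ± 0.43 in control, 0.30 ± 0.43 in model and 0.52 ± 0.44 in intervene (SE).

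**Figure D3:**
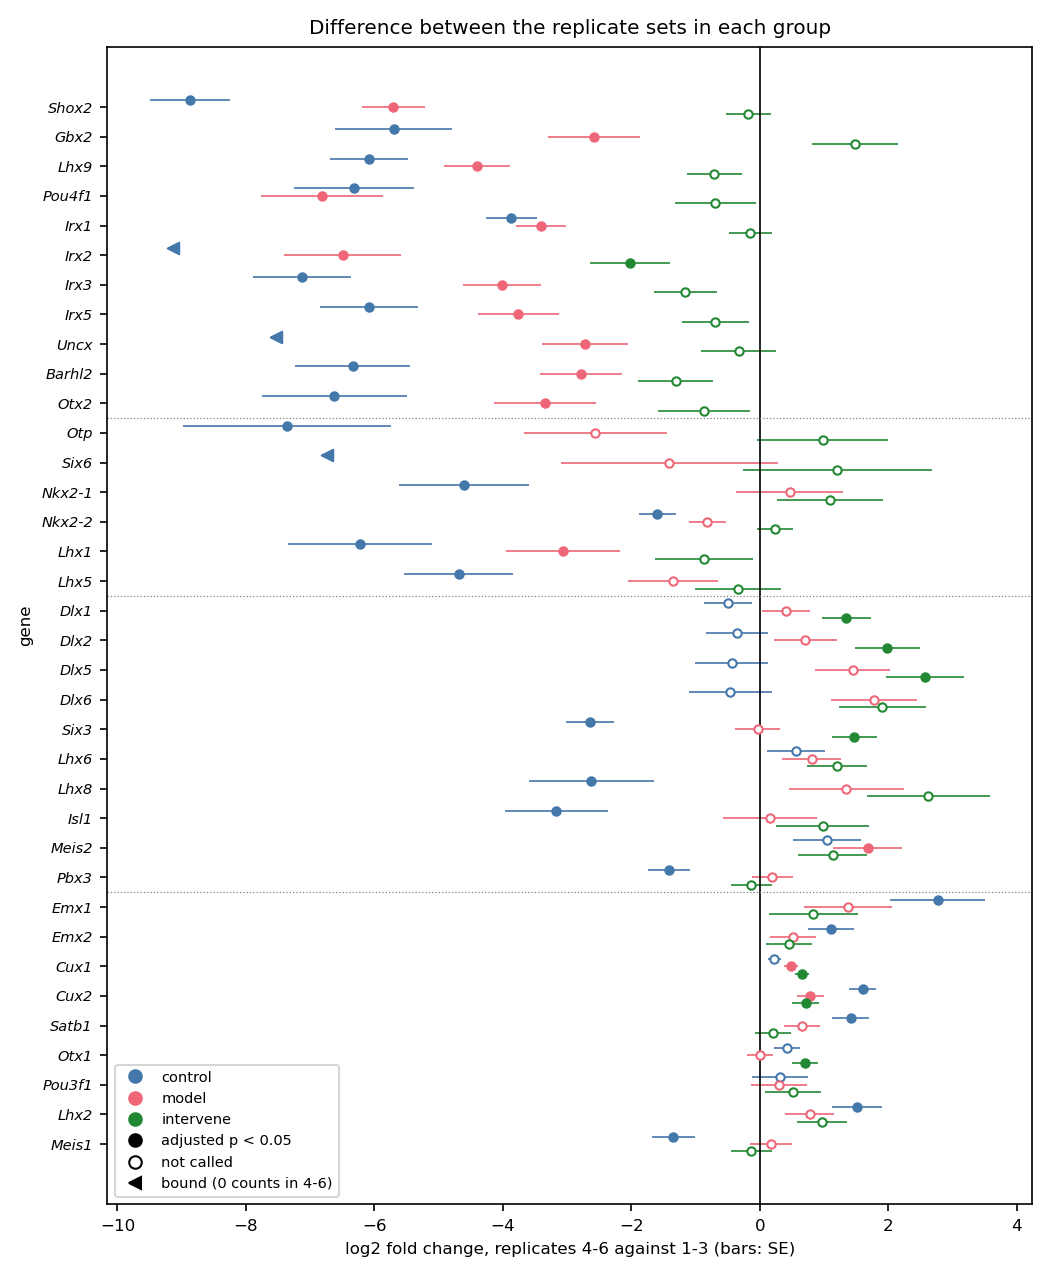
Log2 fold change of libraries 4 to 6 against libraries 1 to 3 (x axis) for each of the 36 genes (y axis) in control, model and intervene, with bars for the SE, filled points for an adjusted p under 0.05 and triangles for bounds of genes with 0 counts in a set. The control and model points of the thalamic group lie far left of 0, down to -8.87 for Shox2 among fitted values, and the intervene points of that group lie between -2.02 and 1.49.

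**Figure D4:**
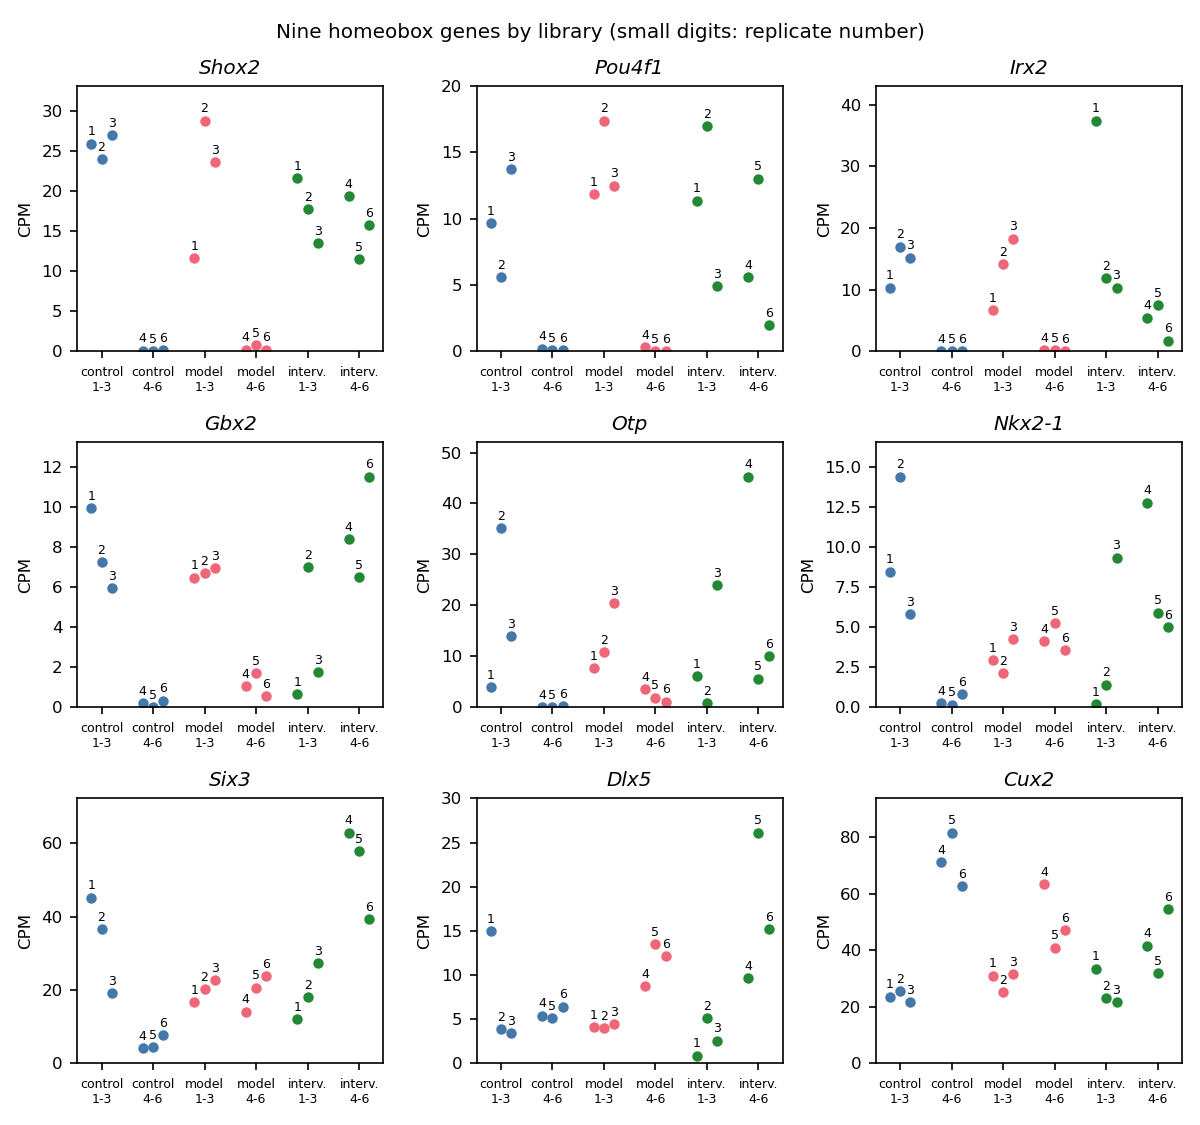
CPM (y axis) of 9 of the genes, 1 panel each, in every library, with the 6 combinations of group and number set on the x axis and the replicate number beside each point. Shox2 is near 0 in 6 libraries and at 11.5 CPM or more in the other 12, and Cux2 is highest in control 5, at 81.7 CPM.

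The difference between number sets itself differed between intervene and the mean of control and model for 15 of 36 genes, all 15 with a more positive value in intervene (edgeR; 7.6% of all genes were called in that direction and 5.88% in the other, where 0 of 36 were). These were 11 of 11 thalamic genes (median 4.54 on the log2 scale), 3 of 6 hypothalamic genes (Otp, Nkx2-2 and Lhx1), 1 of 10 subpallial genes (Six3) and 0 of 9 pallial genes (median -0.18). The size was 7.11 ± 0.57 for Shox2 (SE, adjusted p = 3.0e-05), 3.49 ± 0.44 for Irx1 (adjusted p = 0.000911) and 2.81 ± 0.44 for Six3 (adjusted p = 0.00276). The replicate numbers of intervene need not mark the same division as those of the other groups, since the labels do not say what the numbers stand for. Without intervene 1 the count of 15 was 11: the calls for Barhl2, Otx2, Otp and Lhx1 were lost. Those for Barhl2 and Otx2 were also lost without intervene 5, that for Otp without intervene 4 and that for Lhx1 without any 1 of 8 libraries. Of the 9 pallial genes 2 had an unadjusted edgeR p under 0.05, and DESeq2 called 0. At that unadjusted threshold, 2931 of all 18452 genes were more positive in intervene and 2546 more negative.

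When the 3 groups were compared over all 6 libraries each, as the labels set them out, none of the 36 genes was called by edgeR in any of the 3 comparisons (0% of all genes), 0 of 36 had an unadjusted p under 0.05, and DESeq2 called 0 of the 36. Shox2 ranged over 0 to 27.04 CPM (median 12.1) in control, 0.210 to 28.8 CPM (median 6.21) in model and 11.5 to 21.6 CPM (median 16.8) in intervene. Cux2 ranged over 21.7 to 81.7 CPM (median 44.1) in control, 25.2 to 63.4 CPM (median 36.2) in model and 21.6 to 54.5 CPM (median 32.7) in intervene. For both genes the 3 groups overlapped. The medians over the 36 genes were 0.01 (model minus control), 0.35 (intervene minus model) and 0.46 (intervene minus control). Within libraries 1 to 3, 0 of 36 were called in each of the 3 comparisons by edgeR (0% of all genes), and 0 by DESeq2. An unadjusted edgeR p under 0.05 was met by 2, 2 and 5 of the 36, beside 1075, 700 and 1579 of all 18452 genes. The medians of the thalamic group, in the same order, were -0.12, -0.07 and 0.06.

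Within libraries 4 to 6, intervene differed from both other groups. Against model, 11 of 36 genes were higher and 0 lower (3.66% and 2.05% of all genes), and 14 were higher without overlap (14.5% of all genes). Of the 11, 9 were thalamic (all but Barhl2 and Otx2), and the others were Nkx2-2 and Six3. Shox2 was 19.4, 11.5 and 15.8 CPM in intervene and 0.223, 0.769 and 0.210 in model (log2 fold change 5.25 ± 0.49 SE, adjusted p = 0.000191). Nkx2-2 was higher by 1.25 ± 0.29 (adjusted p = 0.0214) and Six3 by 1.46 ± 0.35 (adjusted p = 0.0287). Barhl2 stood at 1.65 ± 0.64 (adjusted p = 0.138) and Otx2 at 2.22 ± 0.79 (adjusted p = 0.112). The count of 11 became 4 without model 4, 6 without model 5, 7 without model 6 and 6 without intervene 5. Nkx2-2, Gbx2, Uncx and Six3 were lost in each of these 4 cases, Irx2 and Irx3 without model 4, and Irx5 without model 4, model 5 or intervene 5. Shox2, Lhx9 and Irx1 were called under every alternative tried, the replicate block included, which ended the calls for Gbx2, Uncx and Six3 (adjusted p = 0.0695, 0.0806 and 0.0681).

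Against control in libraries 4 to 6, 22 of 36 genes were higher in intervene and 1, Cux2, lower (14.7% and 11.2% of all genes). The 22 were 11 of 11 thalamic and 6 of 6 hypothalamic genes, with 4 subpallial genes (Six3, Lhx8, Isl1 and Pbx3) and the pallial Meis1. Shox2 was higher by 8.15 ± 0.63 on the log2 scale (SE, adjusted p = 9.2e-06). Irx2, Uncx and Six6, with no count in controls 4 to 6, were at least 194-, 132- and 144-fold higher by the mean of intervene 4 to 6. For Six6 that mean rests mostly on intervene 4, at 9.32 CPM beside 0.671 and 0.889 in intervene 5 and 6. Cux2 had a log2 fold change of -0.75 ± 0.20 (SE, adjusted p = 0.0134), a call lost without control 5 or intervene 5 (adjusted p = 0.0630 and 0.0531). With the replicate block the calls for Six6 and Lhx8 were lost (adjusted p = 0.0527 and 0.0639). Both were also lost without control 4 or control 5, as was the Isl1 call, and further without control 6 or intervene 4 for Six6 and intervene 5 or 6 for Lhx8. The Pbx3 call was lost without any 1 of the 6 libraries compared. The comparisons with model and with control share the intervene libraries, so their values are not independent of each other.

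For model against control in libraries 4 to 6, edgeR called 0 of 36 genes (0% of all genes). Of the 36, however, 17 had an unadjusted edgeR p under 0.05, beside 1876 of all 18452 genes. DESeq2 called 11 of the 36 higher, with 221 genes called in all. A fit of these 6 libraries alone called 10 higher, with 283 genes called in all. The summed thalamic level was 0.993 to 2.26 CPM in control and 3.71 to 11.4 in model, so the 2 groups did not overlap. Shox2 stood at 2.90 ± 0.91 (SE, adjusted p = 0.308), and 7 of the 11 thalamic genes were higher in model without overlap (9.95% of all genes). Thalamic neuron markers moved beside these genes: 7 of 18 were higher in intervene than in model 4 to 6 and 0 lower. Against control 4 to 6, 12 of the 18 were higher in intervene and 2 lower. Their sums in libraries 4 to 6 were 317 to 378, 357 to 537 and 690.0 to 908 CPM in control, model and intervene. No thalamic neuron marker was at 0 in all 3 libraries of a set. Markers of other cell types moved beside these genes as well. Of 12 markers of ependyma, the ciliated lining of the ventricles, 12 were lower in controls 4 to 6 and 4 in model 4 to 6 than in libraries 1 to 3, and 12 were higher in intervene than in control in libraries 4 to 6 (median log2 difference 3.0002) but 0 were called against model (8 with an unadjusted edgeR p under 0.05). Their sums in libraries 4 to 6 were 12.1 to 25.6 CPM in control, 44.2 to 67.8 in model and 114 to 192 in intervene. Of the 14 choroid plexus markers tested, 12 were higher in intervene than in control 4 to 6 (median 4.48) and 0 were called against model (12 with an unadjusted p under 0.05), with sums of 221 to 242, 245 to 332 and 352 to 4948 CPM. Against model in libraries 4 to 6, 2403 of all 18452 genes were higher by an unadjusted edgeR p under 0.05. Red blood cell markers were higher in intervene 4 to 6 for 4 of 5 genes against control and 2 of 5 against model, with sums of 116 to 159, 142 to 185 and 268 to 411 CPM. Of 7 markers of midbrain dopamine neurons, 6 were lower in controls 4 to 6, 1 in model 4 to 6 and 3 in intervene 4 to 6 than in libraries 1 to 3, and 1 was higher in intervene than in control 4 to 6. Of 12 GABAergic neuron markers, 6 were lower and 2 higher in controls 4 to 6 than in controls 1 to 3, and 5 were higher and 1 lower in intervene than in control 4 to 6. The part of tissue composition in these differences was not tested.

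**Figure D5:**
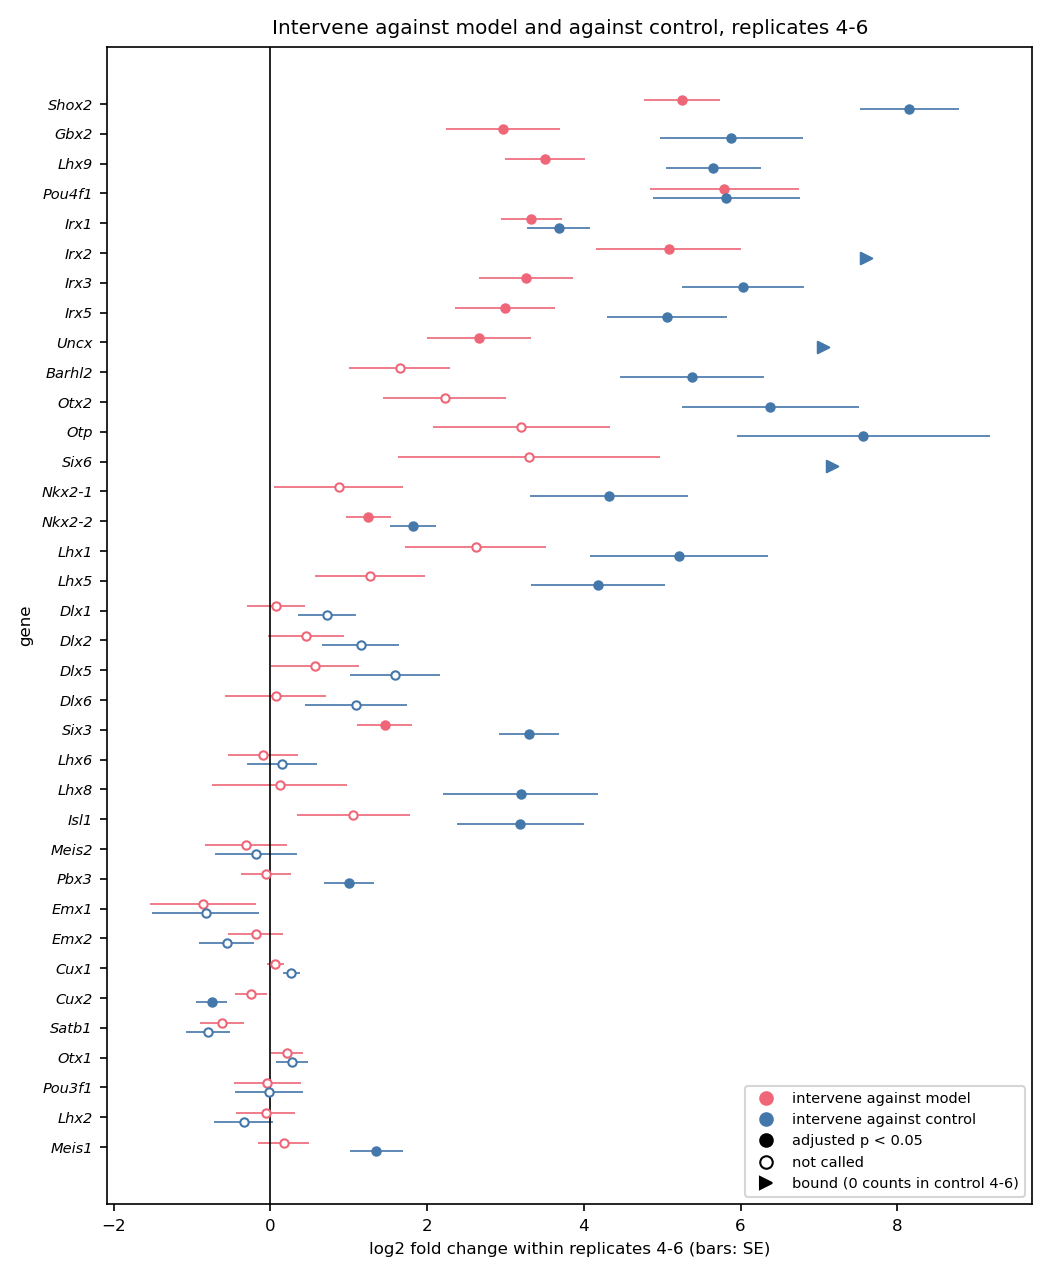
Log2 fold change (x axis) of intervene against model and of intervene against control within libraries 4 to 6 for each of the 36 genes (y axis), with bars for the SE, filled points for an adjusted p under 0.05 and triangles for bounds of genes with 0 counts in controls 4 to 6. Points of the thalamic group lie right of 0 in both comparisons, from 1.65 to 5.79 against model, and pallial points lie between -0.86 and 0.21 against model and between -0.83 (Emx1) and 1.35 (Meis1) against control.

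The wider homeobox family was taken from a list of 107 further symbols, of which 104 were in the table and 77 were tested. In controls 4 to 6, 31 of the 77 were lower and 7 higher; in model 19 and 4; in intervene 13 and 7. The shares of all genes were those given above. The 2 genes named next, factors of the midbrain that fell in intervene 4 to 6, were picked after their values were seen. En1, the engrailed gene of the midbrain and hindbrain, was at 13.2, 2.07 and 6.15 CPM in intervene 1 to 3 and 0.0676, 0.0671 and 0.137 in intervene 4 to 6 (log2 fold change -6.25 ± 1.33 SE, edgeR adjusted p = 0.00960). Pax7, a factor of the dorsal midbrain, went from 7.13, 3.04 and 3.105 to 0, 0.0671 and 0 CPM (adjusted p = 0.00733). Controls 4 to 6 had no count of Pax7, so its near absence was not particular to intervene, whereas at least 1 library of model 4 to 6 held a count. For intervene against model in libraries 4 to 6, 5 of 77 were higher (Lmx1a, Nkx6-2, Dbx2, Gsx1 and Zhx2) and 0 lower.

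Levels of different genes were compared per length, on the deposited FPKM scale, as means of 3 libraries. In controls 1 to 3 the highest of the 36 were Pou3f1 at 5.27 ± 2.68 (SD, n = 3), Six3 at 4.58 ± 1.91, Meis2 at 4.42 ± 4.61 and Lhx2 at 3.65 ± 1.95 FPKM, which did not differ beyond their spread. In controls 4 to 6 the order was Emx1 at 11.7 ± 0.977, Lhx2 at 10.4 ± 1.08, Meis2 at 8.997 ± 1.26 and Pou3f1 at 6.53 ± 0.733 FPKM; the ranges of neighbouring means ± SD overlapped except between Meis2 and Pou3f1. In intervene 4 to 6 it was Lhx2 at 7.74 ± 1.79, Meis2 at 7.51 ± 2.21, Six3 at 6.800 ± 1.95 and Emx1 at 6.15 ± 2.46 FPKM. Shox2, the thalamic gene with the clearest division, had 2.34 ± 0.0522 FPKM in controls 1 to 3, 0.00581 ± 0.00579 in controls 4 to 6 and 1.33 ± 0.395 in intervene 4 to 6.

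Counts of some genes may be affected by an overlapping neighbour, in a direction that depends on counting settings not given. In the GENCODE M21 annotation 15 of the 36 genes overlapped exons of a gene on the opposite strand, and for 12 of them that gene was also in the count table: Shox2 (with Rsrc1), Six3, Six6, Otx2, Nkx2-2, Lhx5, Irx3, Dlx1, Dlx6, Emx2, Cux1 and Pou3f1. The sources used here do not say whether the libraries keep the strand, so values of these genes are uncertain to that extent. Dlx1 and Dlx2 are neighbours on chromosome 2, and Dlx5 and Dlx6 on chromosome 6.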

How the data were processed

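Raw counts per gene and FPKM of the same 50559 genes were deposited by the authors for 18 libraries. The submitters' processing notes name HISAT2 for alignment, featureCounts for counting and the GRCm39 build, with no versions and no strand setting. The deposited FPKM equal the count divided by a length and by the library total for 18117 of 18117 genes counted in every library, at a relative tolerance of 1e-06. For 13 of 13 mitochondrial genes that length was 2 times the annotated length, so the FPKM stand at a lower scale than usual, with the order between genes kept.

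The test was that of edgeR 4.0.16 under R 4.3.3 on the counts (quasi-likelihood F test with robust estimation, TMM scaling, filterByExpr by group, Benjamini-Hochberg adjustment over 18452 genes, threshold 0.05). All 18 libraries entered each fit, with 3 group means for the comparisons of whole groups and with 6 means, 1 for each group and number set, for the others. All 36 genes passed the filter. The SE is the log2 fold change divided by the square root of F. DESeq2 1.42.0 was an alternative. The members, gene lists and tests were chosen with earlier results of these data known. Values in every library were given at least for the 3 genes of each regional group with the lowest p in any comparison; other genes were named from the lists. The procedure was run on simulated counts with known changes, and the outcome is not given here. Those changes were smaller than the largest falls reported, so the simulation does not cover falls to a few counts. Within groups, any 2 libraries differed with a chi-square of at least 11.4 per degree of freedom, above the noise of counting alone. Each library was counted as 1 sample, but this statistic cannot show that libraries come from separate animals. It would also be raised if fragments were counted more than once, which was not tested.

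Deviations from the group mean correlated across genes at 0.185 to 0.63 for same-numbered libraries of control and model (over 0.1 in 6 of 6 pairs). These deviations include the difference between the number sets, and libraries of unlike number were not compared. After centring within number sets the correlations were -0.177 to 0.237, over 0.1 in 3 of 6. For intervene and model 5 of 6 pairs were over 0.1 before that centring and 1 of 6 after it. For intervene and control the counts were 3 of 6 and 0 of 6. A pairing of libraries by number is thus not shown. The labels do not say what the numbers stand for.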

Additional observations from a re-analysis of the deposited data

Results flagged for a closer look

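In 10 of 108 combinations of gene and group, the highest or lowest of the 6 libraries stood far from the others by Dixon's test. Chance alone meets that check in about 1 of 20 groups drawn from a single normal distribution. The 6 libraries of a group join both number sets, so that rate does not apply directly here. In control, Uncx was highest in library 2 at 8.20 CPM and Six6 in library 2 at 6.27 CPM, Dlx5 was highest in library 1 at 14.97 CPM and Lhx8 in library 1 at 8.72 CPM, Otx1 was highest in library 6 at 5.97 CPM, and Pou3f1 was lowest in library 2 at 12.5 CPM. In model, Six6 was highest in library 3 at 1.72 CPM, and Dlx1 and Lhx8 were highest in library 5 at 28.3 and 8.58 CPM. In intervene, Irx2 was highest in library 1 at 37.4 CPM.

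For 15 of the 36 genes, the difference between libraries 4 to 6 and 1 to 3 was itself different in intervene from the mean of that in control and model. The test was edgeR's, against that mean and not against each group. As given above, the calls for Barhl2, Otx2, Otp and Lhx1 were lost under some alternatives. The adjusted p was 3.0e-05 for Shox2, 0.000911 for Irx1, 0.00143 for Lhx9, 0.00276 for Irx3, 0.00276 for Six3, 0.00301 for Gbx2, 0.00337 for Pou4f1 and 0.00375 for Irx5. It was 0.00421 for Uncx, 0.00527 for Irx2, 0.0140 for Nkx2-2, 0.0192 for Barhl2, 0.0204 for Otx2, 0.0210 for Otp and 0.0319 for Lhx1.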

How the results depend on the processing

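No called gene changed direction under any alternative. Of the 36 genes, the calls held under every alternative for 22 of 27 between control sets, 8 of 15 in model, 1 of 8 in intervene, 3 of 11 for intervene against model in libraries 4 to 6, 18 of 23 for intervene against control there, and 11 of 15 for the difference between sets. DESeq2 called 2, 2 and 73 of all genes for model against control, intervene against model and intervene against control, and 11, 1 and 57 within libraries 1 to 3, where edgeR called 0. Within libraries 4 to 6 DESeq2 called 221 genes and 11 of the 36 higher for model against control, 1880 genes for intervene against model (edgeR 1053), 2 of the 36 lower for intervene against control, and 23 for the difference between sets. That count of genes lower in intervene than in control was also 2 with library totals, with RLE factors and with only the libraries compared. Without the low-count filter, 4 of the 36 were higher and 0 lower in intervene 4 to 6, and all-gene counts were 4 for intervene against control in libraries 1 to 3 and 6 for model against control in libraries 4 to 6. With only the libraries compared, 2 of the 36 rose in controls 4 to 6, 9 in model and 1 in intervene with 0 lower (951 genes in all, against 2752), intervene against control gave 1 gene, and model against control in libraries 4 to 6 gave 283 genes with 10 of the 36 higher. With the number set as a term, intervene against control gave 66 genes. With the replicate number as a block, 2 of the 36 were lower in intervene than in control in libraries 4 to 6 (1 without it); beside the calls named above as lost under the block, it moved no other count of calls by over 1.5 times. Other named genes were not run under the alternatives. The cause of these changes was not tested.

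Leaving out 1 library at a time gave 1278 to 3853 genes (as reported 3448) and 1 to 5 of the 36 higher between model sets. Between intervene sets it gave 1048 to 3274 genes, 2 to 11 of the 36 higher and 0 to 1 lower. For intervene against control it gave 0 to 4 genes over all libraries and 0 to 1 within libraries 1 to 3. Model against control gave 0 to 4 genes within libraries 1 to 3 and 0 to 8 within libraries 4 to 6. Within libraries 4 to 6, intervene against model gave 159 to 1266 genes and 4 to 12 of the 36 higher, and intervene against control 2881 to 4965 genes and 0 to 2 lower. The difference between sets gave 1361 to 2927 genes (2487) and 0 to 1 of the 36 lower. With 3 libraries in a set, 1 library can end a call.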

Other observations

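Homeobox genes outside the 36 also differed between single libraries, and the genes named here were picked after their values were seen. Intervene 1 held the highest value of the 18 libraries for 5 genes of the midbrain and hindbrain: Barhl1 at 15.4 CPM, En1 at 13.2, En2 at 8.198, Pax7 at 7.13 and Hoxb5, a gene of the hindbrain and spinal cord, at 7.13. Hoxb5 was at 1.21 CPM in control 2 and lower in the other 16 libraries, and it did not pass the low-count filter. Model 1 was the lowest of its set, with 0.552 CPM of Barhl1 against 7.76 and 7.52 in model 2 and 3, and 0.123 CPM of En1 against 3.91 and 12.4.

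Hmx3, a factor of the hypothalamus and inner ear, was highest in intervene 4 and control 2, at 5.10 and 5.003 CPM, and Rax, a factor of hypothalamic tanycytes and retina, was highest in control 2 and intervene 4, at 3.80 and 2.03 CPM. Neither had a count in controls 4 to 6. Pou4f2, a relative of Pou4f1, had no count in libraries 4 to 6 of any group or in model 1, whereas the other 8 libraries numbered 1 to 3 held 1.17 to 5.90 CPM.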
